A study of Mus musculus with 6 samples.

Results

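The genes described here are 39 listed genes of the endoplasmic reticulum (ER) folding machinery and of the response to unfolded protein in that compartment: chaperones, disulfide isomerases and oxidases, components of ER-associated degradation, and the sensors and effectors of the IRE1, PERK and ATF6 arms. They were found by symbol. Of the 39, 38 were listed among the 12911 genes of the count tables, all 38 were abundant enough to test, and expression of Trib3 was not analysed here. The libraries came from glomerular endothelial cells, the fenestrated cells that line the kidney's filtering capillaries. There were 3 control libraries from eNOS-null mice without treatment and 3 libraries from eNOS-null mice given STZ (streptozotocin, a beta cell toxin used to make mice diabetic, and labelled as a diabetes model). All mice, controls included, thus lacked endothelial nitric oxide synthase by genotype, and no group with intact eNOS is part of the comparison. Cells were obtained by bead perfusion, enzymatic digestion of glomeruli and sorting for EYFP. The labels do not say what drives EYFP, how old the mice were or how long after STZ they were killed. Each library holds pooled RNA of 4 mice, so the errors and p-values below measure the spread between pools.

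Proteins that enter the ER are folded there by chaperones of the Hsp70 and Hsp90 families, by lectin chaperones that hold glycoproteins, and by isomerases that form and rearrange disulfide bonds. Proteins that fail to fold are pulled back to the cytosol and degraded. When unfolded protein accumulates, IRE1 (gene Ern1) splices the mRNA of Xbp1, PERK (gene Eif2ak3) phosphorylates eIF2alpha and thereby favours translation of Atf4, and ATF6 is cut in the Golgi to release a transcription factor. Splicing, phosphorylation and cleavage are not seen in counts per gene, so what follows concerns transcript levels only. Endothelial cells secrete basement membrane and coagulation proteins through this pathway.

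Total counts ran from 4387339 to 8751732.5 in control and from 10734376 to 12662371.5 in STZ pools, so that every STZ library was the deeper. The targeted gene Nos3 was transcribed in all 6 libraries, at 840 ± 80.5 CPM in control and 676 ± 68.3 CPM in STZ (SD, n = 3 each; CPM is the usual depth-scaled count, here by the TMM-normalised library size; log2 difference -0.31, adjusted p = 0.0910 by edgeR, not called), and its counts do not show which allele was read. Markers of endothelium were present in all libraries, with 13 genes summing to 16650 to 18780 CPM in control and to 27940 to 30020 CPM in STZ, and 7 of the 13 were called higher. Sums of 16 mesangial and mural markers ran from 1497 to 1636 CPM in control and from 668 to 1243 CPM in STZ, with 3 called lower, and sums of 15 podocyte markers overlapped (5172 to 8250 against 5412 to 6751 CPM), with none called by edgeR, 4 at an unadjusted p under 0.05 and 1 called by DESeq2. Of 5 red cell markers 3 were called higher in STZ (sums of 125 to 206 CPM against 21.8 to 59.1 CPM). Sums of 4 plasma and B cell markers overlapped (90.2 to 130 CPM in STZ and 101 to 116 CPM in control). Of these, Cd79a was called lower (log2 difference -1.71, adjusted p = 0.00565 by edgeR). Sums of 8 tubule markers overlapped (153 to 502 CPM in control, 49.5 to 260 CPM in STZ). Those of 8 leukocyte markers did too (109 to 143 CPM in control, 106 to 126 CPM in STZ). Among them, Slc12a1 (-3.16, adjusted p = 0.0497 by edgeR) and again Cd79a were called lower. Xist stood at 709 CPM in control and 0.687 CPM in STZ, while Ddx3y stood at 3.07 and 135 CPM. The groups therefore also differ by sex-linked transcripts, and for every difference given here treatment and sex of the pooled animals cannot be told apart. In bulk RNA of sorted cells, fewer cells of a type and less RNA per cell cannot be told apart either, and the part of cell makeup in the differences was not tested.

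In STZ pools 13 of the 38 tested genes rose and none fell (adjusted p under 0.05 by the edgeR quasi-likelihood test, two-sided, over all 12786 tested genes). Over all tested genes 5.47% were called higher and 4.32% lower, or 9.78% in either direction. With unadjusted values, 23 of the 38 genes had a p under 0.05, and 1 of these, Ern1, was lower. DESeq2 likewise called 13 higher and 0 lower, and limma-voom 11 and 0. The genes that rose were the chaperone genes Hspa5, Hsp90b1, Calr and Canx, the isomerase genes Pdia3, Pdia4, Pdia6 and P4hb, the Hspa5 partner genes Dnajc3, Sdf2l1 and Manf, the degradation gene Herpud1 and the phosphatase subunit gene Ppp1r15a. The log2 fold change (STZ over control throughout) had a median of 0.24 over the 38 genes and -0.01 over all tested genes. In 25 of the 38 every STZ library lay above every control library and in 1 every STZ library lay below, against 15.4% and 13.7% of all tested genes. Together the 38 genes took 0.524% to 0.544% of all counts in control pools and 0.629% to 0.701% in STZ pools. The count was 8 when control pool 1 was omitted, 8 when STZ pool 1 was omitted, and 6 when the mesangial and mural marker sum, which itself separates the groups, was a covariate. Under that covariate the 7 genes that lost their calls kept log2 fold changes of 0.26 (Dnajc3) to 0.53 (Ppp1r15a), against 0.30 to 0.58 without it. Those of Canx (0.485) and P4hb (0.52) were larger than without it, and those of the other 5 were smaller.

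**Figure D1:**
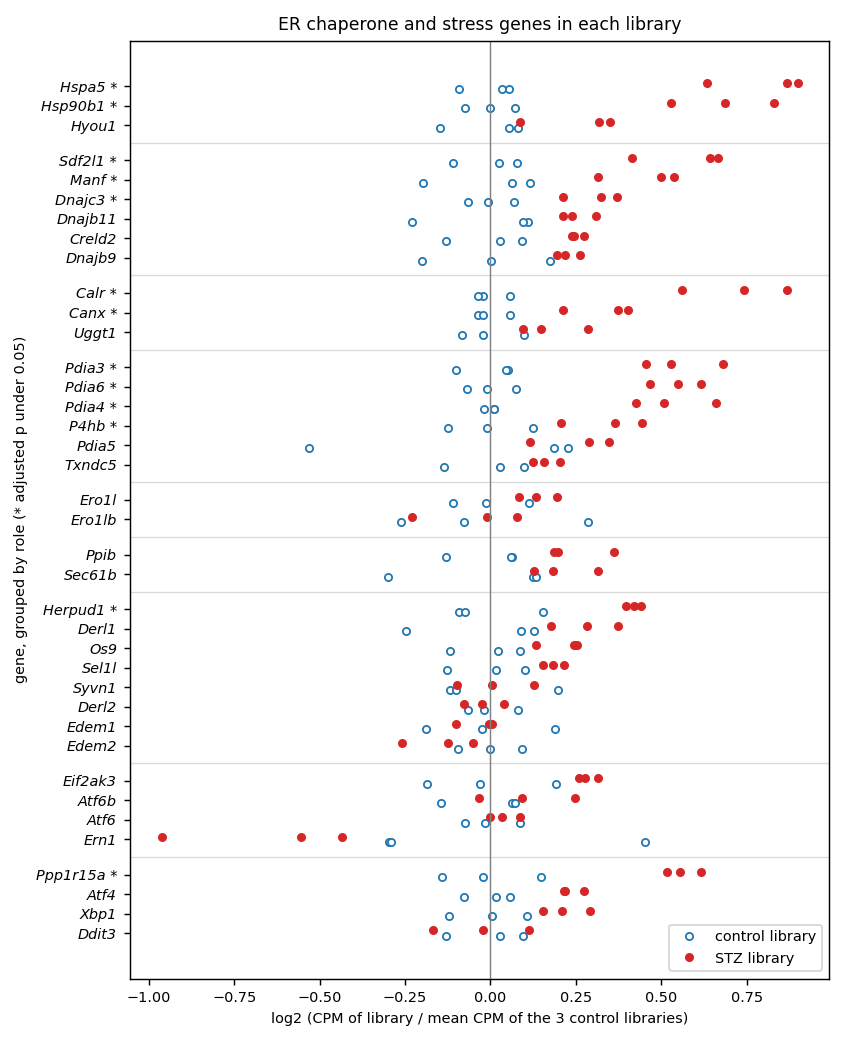
Each row is a gene and each point a library, plotted as the log2 ratio of its CPM to the mean CPM of the 3 control libraries (open blue, control; filled red, STZ), in blocks by role; asterisks mark the 13 genes with an adjusted p under 0.05. The red points of Hspa5, Hsp90b1 and Calr lie farthest to the right by their means, though single points of Sdf2l1 and Pdia3 lie beyond the lowest of theirs. Those of the degradation genes Derl2, Edem1 and Syvn1 mix with the blue ones, and those of Ern1 lie to the left.

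The highest log2 fold changes of the 38 belonged to Hspa5, Calr and Hsp90b1. Hspa5 encodes BiP, the Hsp70 of the ER lumen, which binds nascent chains and holds the stress sensors inactive (NM_001163434; mm10 chromosome 2, 34772090 to 34776529, plus strand). It measured 290, 286 and 262 CPM in control pools 1, 2 and 3 and 520, 433 and 509 CPM in STZ pools 1, 2 and 3. The groups were far apart, and STZ pool 2 was the lowest of its group. The difference was 1.75-fold, a log2 fold change of 0.80 ± 0.10 (SE), with an adjusted p of 0.000236 by edgeR. Hsp90b1 encodes GRP94, the Hsp90 of the lumen, needed for integrins and Toll-like receptors (NM_011631; mm10 chromosome 10, 86690841 to 86705444, minus strand). It measured 504, 479 and 455 CPM in control and 852, 691 and 771 CPM in STZ, a log2 fold change of 0.69 ± 0.10 (SE; adjusted p = 0.000903 by edgeR). Hyou1, the large Hsp70-related exchange factor of BiP, showed 119, 104 and 122 CPM in control and 147, 122 and 143 CPM in STZ. Its groups barely separated and it did not pass (0.26, 95% interval 0.04 to 0.47, adjusted p = 0.133 by edgeR).

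The promoter of Hspa5 is shown because it carries the element from which the transcriptional arm of this response was worked out, the ER stress response element or ERSE (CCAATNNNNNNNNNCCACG). The sequence is the 250 bases before the transcription start in RefSeq's GRCm38.p6 annotation (chr2:34771840-34772089, plus strand), with the fixed letters of the ERSE and the UPRE core TGACGTG in capitals, each searched on both strands.
Hspa5 promoter: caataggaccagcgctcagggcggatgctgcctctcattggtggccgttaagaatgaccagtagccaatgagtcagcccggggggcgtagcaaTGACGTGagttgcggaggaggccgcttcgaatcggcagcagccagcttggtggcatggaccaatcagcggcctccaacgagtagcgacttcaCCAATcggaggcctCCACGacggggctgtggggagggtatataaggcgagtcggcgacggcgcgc
The ERSE lies 65 to 47 bases before the start.

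Windows of 300 bases around the start (250 before, 50 after) were present for 35 of the 39 genes in the RefSeq table. An exact ERSE on either strand occurred in 9 of these 35 genes, Calr, Canx, Creld2, Dnajc3, Ero1lb, Hsp90b1, Hspa5, Pdia6 and Syvn1. Of all 27025 genes with a window, 37 (0.137%) held one, and of the 32851 windows 0.119%. The element was defined from promoters of chaperone genes such as Hspa5, Hsp90b1 and Calr, so its presence there is background and not a result of these libraries. The sites are shown because the genes that hold one were not all called: 6 of 12 called genes with a window held it, and 3 of 22 that were not called. The sites are given with their fixed letters in capitals, 5′ to 3′ on the strand of the motif, with 10 bases on either side.
Hspa5, chr2:34772015-34772053, plus strand: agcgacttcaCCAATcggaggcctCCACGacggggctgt
Calr, chr8:84847065-84847103, plus strand: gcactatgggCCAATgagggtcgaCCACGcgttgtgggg
Hsp90b1, chr10:86705523-86705561, plus strand: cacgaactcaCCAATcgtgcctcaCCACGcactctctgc
Hsp90b1, chr10:86705628-86705666, minus strand: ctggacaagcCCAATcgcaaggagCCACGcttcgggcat
Pdia6, chr12:17266481-17266519, plus strand: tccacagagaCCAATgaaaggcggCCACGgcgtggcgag
Canx, chr11:50325790-50325828, minus strand: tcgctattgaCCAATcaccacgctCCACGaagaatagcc
Dnajc3, chr14:118937817-118937855, plus strand: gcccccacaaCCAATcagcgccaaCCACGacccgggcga
Creld2, chr15:88819510-88819548, minus strand: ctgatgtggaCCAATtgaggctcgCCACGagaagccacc
Syvn1, chr19:6046522-6046560, plus strand: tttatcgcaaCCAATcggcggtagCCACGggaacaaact
Ero1lb, chr13:12565672-12565710, minus strand: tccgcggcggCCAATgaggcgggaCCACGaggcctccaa
Of the genes on these lines, Hspa5, Calr, Hsp90b1, Pdia6, Canx and Dnajc3 rose, while Creld2 (log2 fold change 0.25), Syvn1 (0.02) and Ero1lb (-0.04) did not pass.

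The shorter ERSE-II (ATTGGNCCACG) was found in Herpud1 and Dnajb11, against 0.0444% of all genes with a window. The Herpud1 site, for which it was first described, is shown with its fixed letters in capitals.
Herpud1, chr8:94386367-94386397, plus strand: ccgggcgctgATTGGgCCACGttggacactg
A further search, added after the other motifs were chosen, allowed 1 of the last 5 bases of the ERSE to differ and includes the exact sites. In it 15 of 35 genes had a match, against 1.14% of all genes with a window. The added genes include Pdia3 and Pdia4, which rose, and Ddit3, Derl2 and Sel1l, which did not pass. The UPRE core was found in 2 of 35 genes, against 2.22% of all genes with a window and 3.17% of tested genes. The ATF4 and C/EBP element CARE (TGATGNAA) was found in 3 of 35, Herpud1, Txndc5 and Trib3, against 4.51% of all genes with a window. A match to these letters is no evidence that a factor binds there, and the absence of one says only that the letters are not in this window.

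**Figure D2:**
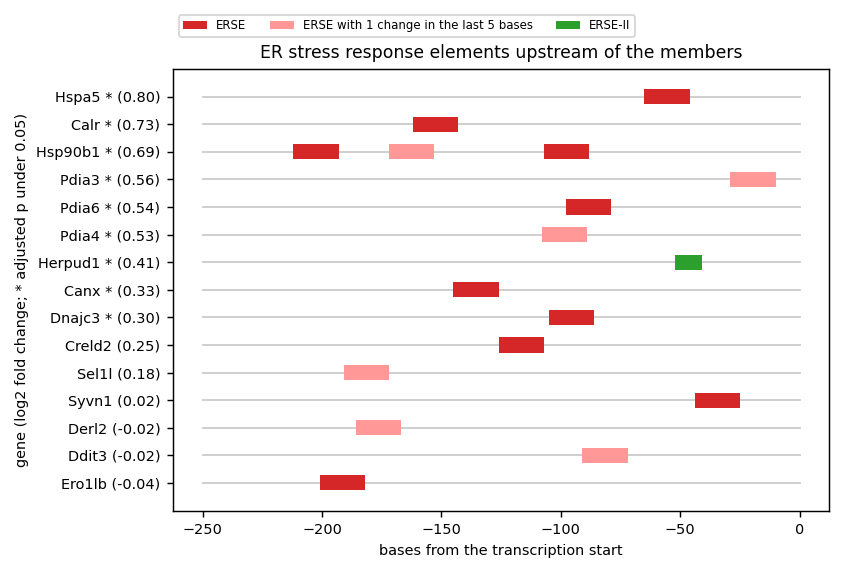
Horizontal lines are the 250 bases before the transcription start of the 15 genes with a site there, ordered by log2 fold change (in parentheses; asterisks mark an adjusted p under 0.05), and bars are exact ERSE (red), ERSE with 1 change in the last 5 bases (pink) and ERSE-II (green). Called genes fill the upper 9 rows, and the exact ERSE is also found lower down in Creld2, Syvn1 and Ero1lb; a match in Dnajb11 lies after the start and a further Herpud1 match reaches it, and these are not drawn.

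Among the partners of BiP, all 6 genes had higher means in STZ with no overlap between groups, and 3 of the 6 rose. The matching shares over all tested genes were 15.4% and 5.47%. Sdf2l1, which keeps BiP clients soluble together with a J protein, measured 20.3, 23.1 and 22.3 CPM in control and 34.8, 34.2 and 29.2 CPM in STZ (0.58 ± 0.13, SE; adjusted p = 0.0105 by edgeR). Manf, a secreted protein that stabilises BiP complexes, measured 58.2, 72.3 and 69.8 CPM in control and 97.0, 94.3 and 83.1 CPM in STZ (0.46 ± 0.11; adjusted p = 0.0146). Both stood clear of the control range, but both calls depended on single libraries. Omitting control pool 1 gave adjusted p of 0.0630 for Sdf2l1 and 0.0844 for Manf, and omitting STZ pool 1 gave 0.0620 and 0.0778. Dnajc3, a J protein that also restrains PERK, rose by 0.30 ± 0.09 (adjusted p = 0.0439), from 131 to 162 CPM. That call was lost without every library except control pool 2, with adjusted p of 0.0736 to 0.1995. The J protein genes Dnajb9 (0.23) and Dnajb11 (0.25) and Creld2 (0.25), an isomerase-like secreted protein, did not pass, with adjusted p of 0.132 to 0.221 by edgeR.

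Both lectin chaperone genes rose, against 5.47% of all tested genes. Calr encodes calreticulin, which binds monoglucosylated glycoproteins and stores calcium (NM_007591; mm10 chromosome 8, 84842088 to 84846931, minus strand). It measured 449, 426 and 421 CPM in control and 788, 637 and 723 CPM in STZ, and the lowest STZ value exceeded the highest control value by a wide margin. The log2 fold change was 0.73 ± 0.10 (SE; adjusted p = 0.000532 by edgeR). Canx, the membrane-bound homologue calnexin, measured 212, 227 and 214 CPM in control and 282, 252 and 287 CPM in STZ, a rise of 0.33 ± 0.09 (adjusted p = 0.0350). Canx did not pass when any of 3 libraries was omitted, with an adjusted p of 0.126 for control pool 1 and of 0.153 for both STZ pool 1 and STZ pool 3, or with the replicate number as a block (0.0844). Uggt1, the glucosyltransferase that marks unfolded glycoproteins for another round on these lectins, overlapped between groups (0.18, 95% interval -0.02 to 0.38, adjusted p = 0.253).

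Of 6 disulfide isomerase genes 4 rose, against 5.47% of all tested genes, with a median of 0.44 over the 6. Pdia3 encodes ERp57, the isomerase that works with calreticulin and calnexin (NM_007952; mm10 chromosome 2, 121413902 to 121438686, plus strand). It measured 497, 553 and 551 CPM in control and 855, 732 and 770 CPM in STZ (0.56 ± 0.10, SE; adjusted p = 0.00268 by edgeR). Pdia6 (0.54 ± 0.09; adjusted p = 0.00171), which acts with BiP, measured 183, 172 and 165 CPM in control and 253, 239 and 265 CPM in STZ. Pdia4, which encodes ERp72, measured 123, 122 and 120 CPM in control and 192, 163 and 173 CPM in STZ (0.53 ± 0.09; adjusted p = 0.00195). For these 3 genes the groups were well separated. P4hb, the classical isomerase and a subunit of collagen prolyl hydroxylase, rose by 0.34 ± 0.10 from 323 to 410 CPM, close to the threshold (adjusted p = 0.0491). P4hb did not pass when any library other than control pool 2 or STZ pool 2 was omitted (adjusted p of 0.0931 to 0.222), with limma-voom (0.0535) and with the replicate block (0.104).

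The remaining redox and folding genes did not pass. Pdia5 measured 95.3, 98.0 and 57.9 CPM in control and 102, 107 and 90.7 CPM in STZ, and control pool 3 lay far below the others (0.24, 95% interval -0.18 to 0.66, and 0.05 without that pool). Txndc5, another isomerase-like protein, had a log2 fold change of 0.16 (interval -0.03 to 0.35). The oxidase genes Ero1l and Ero1lb, which pass electrons from the isomerases to oxygen, stood at 0.13 (interval -0.08 to 0.34) and -0.04 (interval -0.39 to 0.32), and both overlapped between groups. Ppib, the cyclophilin of the collagen folding complex, measured 91.0, 90.8 and 79.5 CPM in control and 112, 100.0 and 99.0 CPM in STZ (0.25; adjusted p = 0.123). Sec61b, a subunit of the channel through which proteins enter the ER, stood at 0.20 (adjusted p = 0.394). Of Ppib and Sec61b, 1 had an unadjusted p under 0.05, of the oxidase genes 0, and DESeq2 called none of these 4.

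Of 8 degradation genes 1 rose, Herpud1, against 5.47% of all tested genes. A count this small says little about the group. Herpud1 encodes a membrane protein that assembles the HRD1 ubiquitin ligase complex (NM_022331; mm10 chromosome 8, 94386500 to 94395358, plus strand). It measured 118, 99.7 and 101 CPM in control and 142, 144 and 140 CPM in STZ, a log2 fold change of 0.41 ± 0.09 (SE; adjusted p = 0.0112 by edgeR). The STZ values were tightly grouped above the control range, and the call held without any 1 library. With the mesangial and mural marker sum as a covariate the log2 fold change was 0.39 and no longer passed (adjusted p = 0.194). Syvn1, the HRD1 ligase itself, measured 111, 112 and 138 CPM in control and 112, 131 and 121 CPM in STZ (0.02, interval -0.20 to 0.24). The mannosidase-like genes Edem1 (-0.03, interval -0.25 to 0.19) and Edem2 (-0.14, interval -0.35 to 0.07), and Derl2 (-0.02, interval -0.21 to 0.17), a candidate export channel subunit, also overlapped between groups. Sel1l (0.18), the HRD1 partner, the lectin gene Os9 (0.21) and Derl1 (0.27) had separate groups without passing, with adjusted p of 0.136 to 0.232. The median of the 8 was 0.10 (0.06 without STZ pool 2), against 0.69 for the 3 Hsp70 and Hsp90 genes.

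None of the 4 sensor genes passed by edgeR, DESeq2 or limma-voom, and 2 had an unadjusted p under 0.05 by edgeR, Ern1 and Eif2ak3. Ern1 was the 1 gene of the 38 with every STZ library below every control library. It measured 15.5, 15.6 and 26.1 CPM in control and 13.0, 9.77 and 14.1 CPM in STZ, from counts of 97 to 174 per library. Control pool 3 stood above the other controls, and the remaining controls lay just above the highest STZ pool. The log2 fold change was -0.61 (95% interval -1.08 to -0.13, adjusted p = 0.109 by edgeR). The value depended on control pool 3, without which it was -0.34 (adjusted p = 0.326), and with the mesangial and mural covariate it was -0.31 (adjusted p = 0.702). In a single random thinning of all libraries to the depth of the shallowest, it was -0.93 (adjusted p = 0.0133 by edgeR). The thinning was not repeated, so how far this value varies between draws is not known. With the podocyte marker sum as a covariate the log2 fold change was -0.66 (adjusted p = 0.0347 by edgeR). Eif2ak3 measured 47.0, 52.4 and 61.2 CPM in control and 64.9, 66.6 and 64.0 CPM in STZ (0.29, interval 0.06 to 0.52, adjusted p = 0.107), and passed without control pool 3 (0.40; adjusted p = 0.0234). Atf6 measured 67.4, 64.6 and 72.2 CPM in control and 72.3, 68.1 and 69.7 CPM in STZ, which is nearly the same level (0.04, interval -0.15 to 0.24). Its homologue Atf6b overlapped between groups too (0.11, interval -0.10 to 0.32).

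While 5.47% of all tested genes were called higher, of the 4 effector genes measured 1 rose, too few to describe the group, namely Ppp1r15a. It encodes GADD34, the stress-induced subunit that leads protein phosphatase 1 to eIF2alpha and so restores translation (NM_008654; mm10 chromosome 7, 45522917 to 45526268, minus strand). It measured 93.7, 86.3 and 105 CPM in control and 146, 140 and 136 CPM in STZ, and rose by 0.57 ± 0.09 on the log2 scale (SE; adjusted p = 0.00177 by edgeR). The call held without any 1 library. With the mesangial and mural covariate the log2 fold change was 0.53 and did not pass (adjusted p = 0.0806). Ddit3 encodes CHOP, the pro-apoptotic factor downstream of ATF4. It measured 27.8, 23.8 and 26.5 CPM in control and 25.6, 23.2 and 28.2 CPM in STZ, so the groups lay on top of each other (-0.02, interval -0.30 to 0.26). Atf4 measured 177, 182 and 166 CPM in control and 203, 211 and 203 CPM in STZ, separate but not past the threshold (0.24, interval 0.05 to 0.42, adjusted p = 0.104). Xbp1, whose total transcript is counted here without regard to splicing, measured 106, 98.8 and 90.6 CPM in control and 110, 121 and 114 CPM in STZ (0.22, interval 0.02 to 0.41, adjusted p = 0.160).

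The arms were compared with target genes assigned from textbook knowledge, although several chaperone genes answer to both XBP1 and ATF6. In the ATF6 group 7 of 13 genes rose, all 13 had a positive log2 fold change and the median was 0.41. In the IRE1 and XBP1 group 1 of 9 rose, Dnajc3, 3 of 9 were negative and the median was 0.20. In the PERK and ATF4 group 1 of 4 rose, Ppp1r15a, and the median was 0.26. For comparison, 13 of all 38 genes rose and 32 were positive. Among the 12786 tested genes, 699 (5.47%) were called higher and 6159 were positive. Counts of 1 in so few genes say little about an arm. The called genes Pdia3, Pdia6, Canx and P4hb were assigned to no arm. Without any 1 library the medians ran from 0.36 to 0.43 for ATF6, from 0.13 (without control pool 3) to 0.22 for IRE1 and XBP1 and from 0.22 to 0.30 for PERK and ATF4. No test of a difference between the arms was made, since the genes were chosen with earlier results known.

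**Figure D3:**
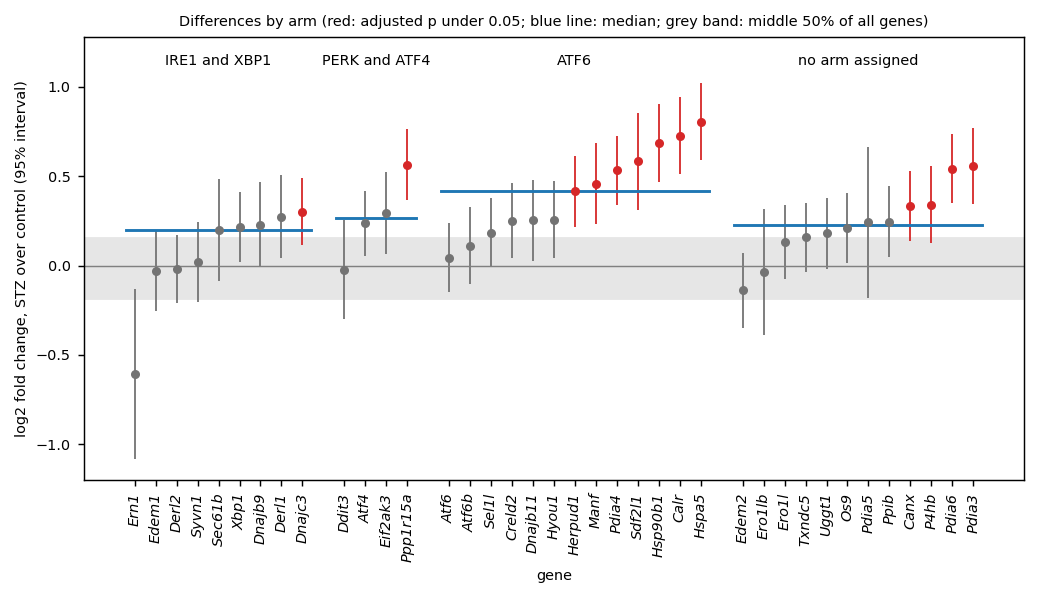
Points are log2 fold changes of STZ over control with 95% intervals from the edgeR fit (n = 3 against 3), in red where the adjusted p was under 0.05; blue lines are medians of each arm and the grey band holds the middle 50% of all tested genes. Points are sorted by log2 fold change within each block, so red points lie toward the right of it. Ppp1r15a is the red point of the PERK block and Dnajc3 that of the IRE1 block. A further block, also with its median, holds the genes assigned to no arm, among them the red points of Pdia3, Pdia6, Canx and P4hb.

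Ratios of counts within a library do not depend on how libraries are scaled. There were 1.64, 1.57 and 1.58 Hspa5 counts for each Atf4 count in control pools and 2.56, 2.05 and 2.51 in STZ pools. The ratio of Eif2ak3 to Ern1, 2 sensors of the same response, was 3.04, 3.36 and 2.35 in control and 5.01, 6.81 and 4.55 in STZ. Ppp1r15a over Ddit3, 2 targets of the same arm, was 3.37, 3.62 and 3.98 in control and 5.69, 6.04 and 4.84 in STZ. In each of these the groups did not overlap. Hspa5 over Ern1 had means of 15.7 ± 4.90 in control and 40.2 ± 4.07 in STZ, and Ppp1r15a over Atf4 of 0.547 ± 0.0821 and 0.683 ± 0.0301 (SD, n = 3 each). For all 5 ratios compared the exact two-sided permutation p was 0.1 and the adjusted p 0.1, which is the smallest that 3 against 3 pools can give. The pairs were not planned in advance. Each numerator had a higher log2 fold change than its denominator, so the separation restates those differences and adds no further support.

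**Figure D4:**
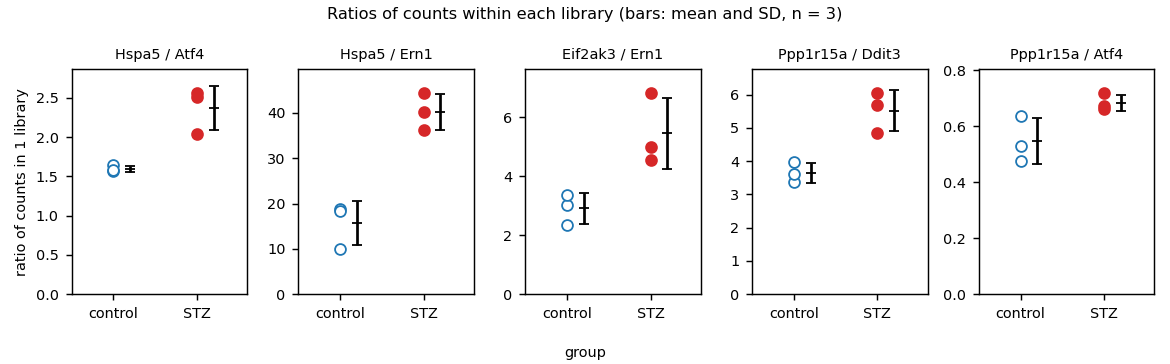
Each panel gives the ratio of the deposited counts of 2 genes in each library (open blue, control; filled red, STZ) with mean and SD of the 3 libraries, on axes that start at 0. In all 5 panels the 3 STZ values lie above the 3 control values, narrowly so for Ppp1r15a over Atf4. Each numerator had the higher log2 fold change of its pair.

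Levels can be set against each other only per length. In CPM per kilobase of transcript, Calr (222), Pdia3 (202) and Hsp90b1 (174) were the most abundant of the 38 in control, followed by P4hb (127), Hspa5 (110) and Atf4 (101). In STZ the first 3 were Calr (368), Pdia3 (297) and Hsp90b1 (280), and Hspa5 (192) had passed P4hb (161). The lowest were Ero1lb (4.41 in control), Ern1 (4.79) and Atf6 (9.12). Across the 38 genes Spearman's rho of control level per kilobase with log2 fold change was 0.56, and across all 12786 tested genes it was 0.17. Genes share libraries and are not replicates, so this is a description. Within the STZ group, STZ pool 2 had the lowest value of the 3 in 8 of the 13 called genes.

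Genes of the same pathway outside the list were counted by group. Counts in this and the next 2 paragraphs are to be read beside all tested genes. Of those, 5.47% were called higher and 4.32% lower. Of 30 further folding factors 7 rose and none fell. They include Fkbp14, a prolyl isomerase of collagen folding (25.1, 25.1 and 23.9 CPM in control and 75.8, 67.8 and 70.2 CPM in STZ; 1.53 ± 0.10), the sulfhydryl oxidase Qsox1 (1.38 ± 0.11) and P4ha2, a catalytic subunit of collagen prolyl hydroxylase whose partner subunit is P4hb (0.88 ± 0.10). These 3 were called under all 19 alternative settings. The count of 7 was 4 without STZ pool 1. Of 30 genes of translocation, signal peptide removal and glycan transfer 2 rose, Rpn1 (0.46 ± 0.09) and Stt3b (0.42 ± 0.10), subunits of the oligosaccharyltransferase, and none fell. That count is near the share called higher over all tested genes. Stt3b did not pass when STZ pool 1 (adjusted p = 0.0626) or STZ pool 3 (0.0622) was omitted. Of 23 further degradation genes Selk (0.39) and the ubiquitin-conjugating enzyme gene Ube2g2 (0.32) were called higher, but both calls rested on single libraries. With 1 library omitted at a time, Selk passed without control pool 2 and without STZ pool 2, and Ube2g2 without control pool 3 alone. Of 11 genes of site proteases and other membrane-bound factors only Bax rose (0.47 ± 0.08), a pro-apoptotic gene that also modulates IRE1.

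Of 27 tested targets of ATF4 outside the list, 3 rose and 1 fell, with a median of 0.13. Ddit4, an inhibitor of mTORC1 that is also induced by glucocorticoids and hypoxia, measured 59.3, 60.6 and 60.3 CPM in control and 135, 139 and 126 CPM in STZ (1.15 ± 0.09; adjusted p = 4.02e-06 by edgeR). Cebpg, a dimer partner of ATF4 (0.58 ± 0.09), and Slc3a2, the heavy chain of several amino acid transporters (0.47 ± 0.09), rose, while the arginine transporter gene Slc7a1 fell (-0.57 ± 0.12). The classical targets Chac1 (-0.07), Atf3 (0.14) and Asns (0.36), chosen after their values were seen, did not pass. Of 13 genes of eIF2 kinases, eIF2 and eIF2B subunits and their regulators, 1 rose and 1 fell. The gene that rose was Dnajc3, which is a listed member described above and not an eIF2 kinase or subunit. Eif2s3x, an X-linked subunit of eIF2, fell from 125 to 81.9 CPM (-0.61 ± 0.09). Its Y-linked copy Eif2s3y stood at 1.13 CPM in control and 92.8 CPM in STZ. How reads were divided between these copies was not tested.

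Chaperones of other compartments were counted for comparison. Of 20 cytosolic heat shock genes 5 rose and none fell, with a median of 0.11. Hspa8, the constitutive Hsp70, rose from 1154 ± 124 to 1714 ± 209 CPM (0.57 ± 0.12), which did not pass when STZ pool 1 was omitted (adjusted p = 0.0504). Hspb1 (0.79 ± 0.17) did not pass when control pool 2 was omitted (adjusted p = 0.0753), and St13 (0.46 ± 0.09), a co-chaperone of Hsp70, held without any 1 library. The cytosolic count was 2 without STZ pool 1. None of 12 mitochondrial chaperone and protease genes was called by edgeR, DESeq2 or limma-voom, and 0 had an unadjusted p under 0.05. Of the 12, 10 were negative and the median was -0.10 (-0.04 without STZ pool 2), with Grpel2 (-0.26) and Htra2 (-0.19) having the smallest p. Immediate early genes, which respond to cell dissociation among other stimuli, were called higher in 7 of 18 (median 0.43), Btg2 (0.74 ± 0.09), Socs3 (1.56 ± 0.18) and Dusp1 (0.53 ± 0.10) having the smallest p. Their part in the differences of Ppp1r15a and the chaperone genes was not tested.

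**Figure D5:**
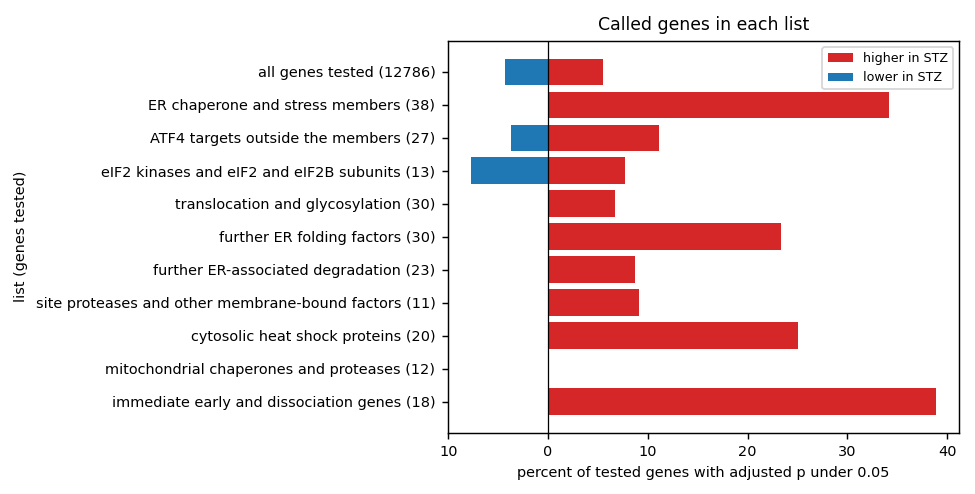
Bars give the percent of tested genes with an adjusted p under 0.05 in each list, higher in STZ to the right (red) and lower to the left (blue), with the number of tested genes in parentheses. The 38 ER genes have 13 calls, all to the right, the mitochondrial list has none, and all tested genes have 5.47% to the right and 4.32% to the left.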

How the data were processed

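Messenger RNA sequencing of 6 sorted endothelial pools was compared from 1 deposited table per library, which holds 1 value per gene, treated as an expected count; the authors' notes name the build mm10 and limma, per the submitters' processing notes. Which aligner and counter were used, whether strand was read, and how transcripts were combined is not given in the sources used here. Values are multiples of 0.5 (2251 genes had a fractional one) and were rounded to whole counts; the 34 blank cells were read as 0. Starts were moved by 1 to be 1-based. Groups were taken from the labels. The test was edgeR 4.0.16 in R 4.3.3 (filterByExpr, TMM, robust quasi-likelihood F test, Benjamini-Hochberg over 12786 genes, threshold 0.05), checked on simulated data. That check gave every gene the same dispersion and changed no gene of low counts, so it does not vouch for the calls of single genes. Errors are SD over 3 pools or SE of the log2 fold change, and intervals are 95%. DESeq2 1.42.0 and limma-voom (limma 3.58.1) were among the 19 alternatives. The total counts per library limit precision most for genes of few counts, such as Ern1. Separate animals within pools cannot be resolved.

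The member genes, the lists, the assignment to arms and the motifs were chosen with earlier results of these data known, so no list was tested as a set. Named genes are the 39 listed ones, up to 3 called genes with the smallest p in each other list (2 where none was called), Nos3, and sex-linked and marker genes; others are named as chosen after their values were seen. Promoter sequences come from RefSeq (GRCm38.p6), matched by symbol, with Ero1l and Ero1lb matched as Ero1a and Ero1b by gene identifier. Protein sequences were not used here.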

Additional observations from a re-analysis of the deposited data

How the results depend on the processing

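Under all 19 alternative settings, Hspa5, Hsp90b1, Calr, Pdia3, Pdia4 and Pdia6 stayed called higher. Without 1 library the number of the 38 genes called higher ran from 8 to 13 and the number called lower was 0; over all genes, calls ran from 426 to 695 higher and from 236 to 596 lower, and the median of the BiP partners from 0.26 to 0.34. With a replicate block 10 were called higher; same-numbered pools did not deviate together (correlations 0.119, -0.128 and -0.163), and the pools share only a number. Thinned to the shallowest library in a single random draw, 1 gene was lower, Ern1. With the podocyte level as covariate 17 were higher and 1 lower (Ern1), with 1193 and 1013 calls over all genes. With the mesangial and mural level as covariate, whose groups do not overlap, 6 were higher, with 229 higher and 118 lower calls over all genes; the medians were then 0.87 for Hsp70 and Hsp90 genes, 0.485 for lectin chaperones, 0.58 for isomerases, 0.15 for oxidases and -0.018 for sensors, and Ppp1r15a (0.53 against 0.57, adjusted p = 0.0806) and Herpud1 (0.39 against 0.41, adjusted p = 0.194) lost their calls. The cause was not tested. At a threshold of 0.10 there were 866 lower calls over all genes. Depth was least in control pool 3, where Sdf2l1 had 101 counts, Ero1lb 103, Sec61b 112, Ern1 118 and Ddit3 120.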
